A study of Mus musculus with 12 samples.

Results

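The hippocampus (HC) of mice that had learned a visual task was compared with that of control mice, gene by gene. The comparison rests on 6 of the 12 arrays of the series, chosen by their sample titles: 3 arrays of HC trained pools and 3 of HC control pools. All 27381 genes of the deposited table were used. The other 6 arrays measured the anterior cingulate cortex (ACC), a frontal area, of trained and control mice, and entered only the shared estimate of spread and a closing comparison.

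HC trained mice were of both sexes and of the C57Bl6/J background strain, which the labels spell C57B16/J. Water-deprived and head-fixed on an air-cushioned ball, they learned to answer a visual cue for a water reward until they reached a criterion. This took on average 27 ± 2.6 days of training. HC control mice were of the same strain and handled in the same way, cues included, but water reached them at random intervals. Head-fixation surgery took place at 8 to 12 weeks of age in both groups and was followed by 7 days of recovery. Per the study's methods, tissue was taken within a day of criterion performance. The exact delay after the last session is not given there. Each HC array was hybridised with total RNA pooled from 7 mice, and each ACC array with RNA from 5 mice. The labels list 34 mice (16 male and 18 female), fewer than 6 HC pools of 7 different mice would need, while the study's methods describe a larger cohort of same-sex trained and control pairs, so the make-up of the pools is not settled. Pools 1 and 2 of each group came from a first experiment (batch 1) and pool 3 from a repeat (batch 2). Every value below is a log2 expression value or a difference of such values, so that a difference of 1 is a 2-fold ratio of signal.

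The hippocampus forms memories of places and events through a circuit of dentate granule neurons and CA3, CA2 and CA1 pyramidal neurons, which GABAergic interneurons keep in check. When neurons fire strongly, immediate early genes such as Fos and Egr1 are transcribed within minutes, and their proteins go on to switch later genes that alter synapses. Astrocytes clear the released glutamate, and the choroid plexus, which lies in the ventricle beside the hippocampus, makes cerebrospinal fluid.

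Receptor genes of the nose (odorant and vomeronasal) gave the background signal: 1365 of them had a median of 1.42 in HC and a 95th percentile of 2.71. By their mean over the 6 HC pools, 16136 genes (58.9%) lay above that level, and genes below it are called dim here. Medians of the 6 HC arrays lay between 3.34 and 3.41. Arrays correlated across genes at 0.995 within a group (0.9945 to 0.9952) and at 0.9932 to 0.9952 between the groups, so the groups were not separated by overall likeness. Dentate granule markers (5 of 5), CA1 markers (4 of 4) and CA2 and CA3 markers (5 of 5) were above background, and 5, 3 and 4 of them were higher in HC than in ACC. None of the 5 cortical layer markers was higher in HC.

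HC trained pool 2 stood apart from the rest in choroid plexus genes. In it the 8 choroid plexus markers averaged 4.86, against 5.48 and 5.51 in HC trained pools 1 and 3 and 5.42 to 5.58 in the HC control pools. In ACC they averaged 3.40. Clic6, a chloride channel of this epithelium, measured 5.47, 4.32 and 5.64 in HC trained pools 1 to 3, against 5.91, 5.61 and 5.77 in HC control pools 1 to 3. Across all 21 measured choroid plexus genes the list mean was 4.77, 4.21 and 4.71 in HC trained pools and 4.71, 4.65 and 4.66 in HC control pools. The median difference of the list was -0.07 over all pools and 0.08 without HC trained pool 2, so its sign turned without that pool. Slc13a4, a sulphate transporter, was the only member whose trained and control pools did not overlap. Among other members, Kcnj13, a potassium channel, differed by -0.46 with HC trained pool 2 and by -0.15 without it, F5, coagulation factor V, by -0.14 and 0.33, and Slc4a5, a bicarbonate transporter, by -0.21 and 0.16. In bulk tissue, fewer cells of a type and less RNA per cell cannot be told apart.

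**Figure D1:**
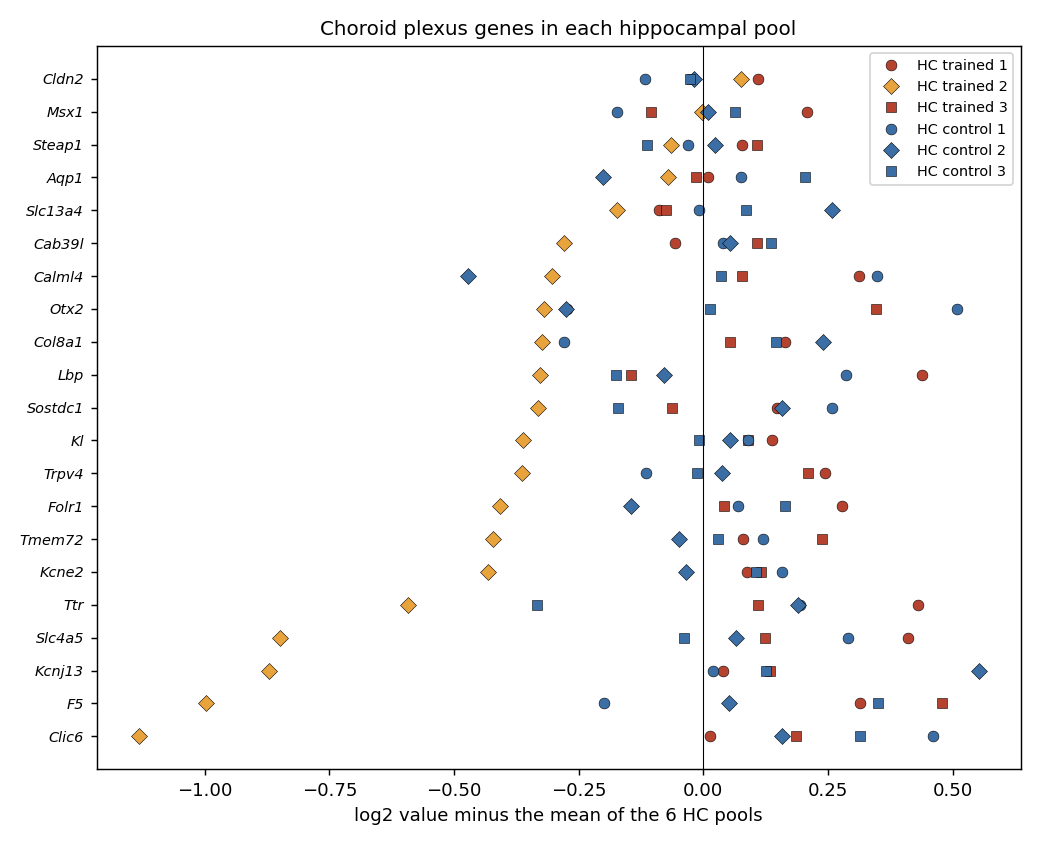
Each row is 1 choroid plexus gene and each symbol 1 hippocampal pool, plotted as its log2 value minus the mean of the 6 HC pools. HC trained 2 (yellow diamonds) lay to the left of every other pool in most rows, by the most in Clic6, where it measured 4.32.

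The pools also differed in sex-linked signal, although trained and control mice were paired by sex according to the study's methods. Y-linked genes averaged 3.78, 4.75 and 4.87 in HC trained pools 1 to 3, against 5.04, 4.17 and 3.96 in HC control pools 1 to 3. Xist, the RNA that silences an X chromosome in females, mirrored them at 8.26, 7.32 and 7.15 in HC trained pools, against 7.11, 8.01 and 8.15 in HC control pools. Male signal was thus lower in the trained than in the control pool numbered 1, and higher in the trained pools numbered 2 and 3. The part of sex or of choroid plexus tissue in the differences below was not tested.

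The first question was whether training left a lasting difference in any hippocampal gene. At an adjusted p under 0.05 no gene was called (0%, 0 of 27381), and the lowest value in the table was 0.155. The nominal threshold from here on is an unadjusted p under 0.05, which 1867 genes passed (6.82%): 1037 were higher in HC trained pools (3.79%) and 830 lower (3.03%). Centring each array on its median, which lowered the median difference of all genes by 0.02, turned this split to 759 higher and 1149 lower. A moderated t over 2 was reached by 1352 genes (4.94%) and one under -2 by 1086 (3.97%). All 3 trained pools lay above all 3 control pools for 1655 genes (6.04%) and below them for 1715 (6.26%), or 12.3% in either direction. Among genes above background the shares were 3.03% higher and 2.99% lower at the nominal threshold, and 4.79% higher and 6.97% lower without overlap. Without HC trained pool 2, 840 genes were higher (3.07%) and 767 lower (2.8%) at the nominal threshold, 0 passed the adjusted one, and 1071 genes were called both with and without that pool. The 95% interval of the median gene reached 0.23 to either side of its difference. With 3 pools a group, smaller differences thus mostly missed even the nominal threshold. The adjusted threshold asked for more, and no difference of any size passed it. Only 10 genes differed by more than 1 in either direction, of which 5 were above background.

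On the first principal component of the 6 HC arrays, which held 25.4% of the variance, HC trained pools scored 30.5, 130 and -16.1, against -31.0, -124 and 10.7 for HC control pools. The groups overlapped, because both pools of batch 2 lay near the middle and the spread was set by the pools numbered 2. The mean scores of 48.2 ± 74.8 and -48.2 ± 69.1 (SD, n = 3 each) were not told apart by a two-sided exact permutation test (p = 0.2, where 3 against 3 cannot give less than 0.1). The highest loadings among nameable genes belonged to Zc3h18, Rd3, Nav2, Fam193b, Dab1 and Ccl4, and the lowest to Camk2d, Sec23a, Bzw2, Kifbp, Pdxdc1 and Thap4. Dab1 encodes the adaptor of reelin signalling, which positions neurons, and Camk2d a subunit of the calcium/calmodulin kinase II.

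Differences were next read by gene group, from 39 lists that together held 1019 measured genes. Over all genes 49% of differences were above 0 and 51% below it, and among genes above background 44.5% and 55.5%. In both batches 24% of all genes were higher and 25% lower (48.9% of one sign), and among genes above background 21.3% were higher and 27.7% lower. These shares, with those at the nominal threshold and without overlap, are the yardstick for each list. No member of any list passed the adjusted threshold.

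**Figure D2:**
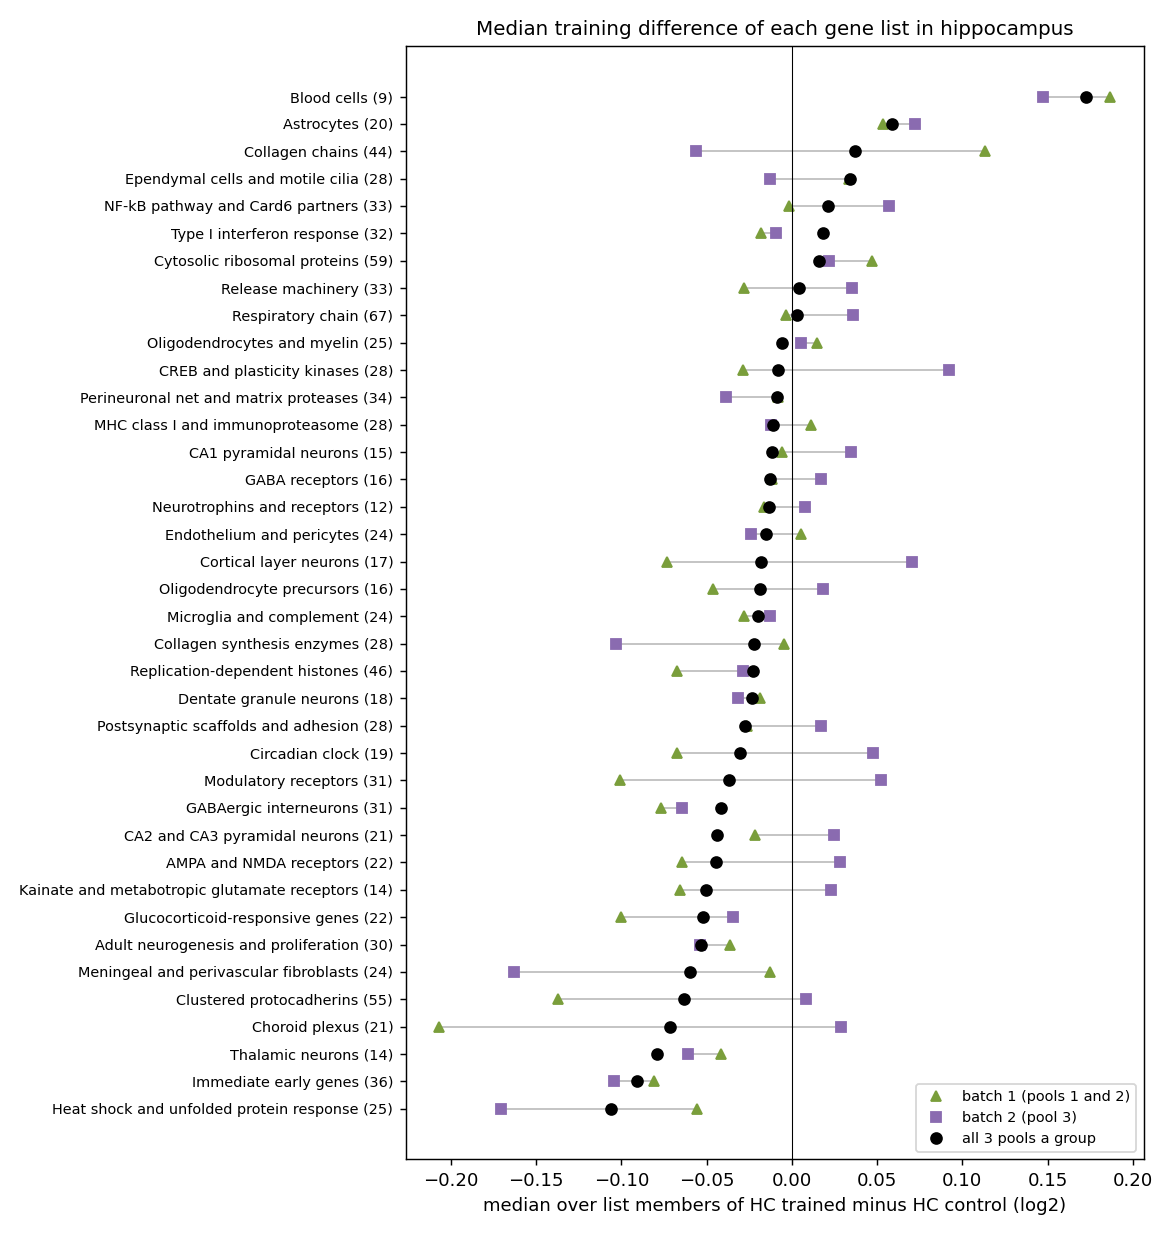
Each row is a gene list with its number of measured genes in brackets. The x axis is the median over members of HC trained minus HC control (log2), over all pools (black circles), in batch 1 (green triangles) and in batch 2 (purple squares). Immediate early genes and heat shock genes lay below 0 and astrocyte genes above 0 in both batches, while choroid plexus genes, protocadherins and collagen chains lay on opposite sides of 0 in the batches.

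Immediate early genes, the transcriptional trace of recent firing, were lower in HC trained pools on balance, although no member reached the nominal threshold in either direction (0 of 36). The list mean was 5.62, 5.72 and 5.68 in HC trained pools, against 5.66, 5.85 and 5.79 in HC control pools. The groups thus overlapped, HC control pool 1 lying below HC trained pools 2 and 3. Of the 36 genes 30 had a negative difference and 20 were negative in both batches (27.7% of genes above background were). Of the 36, 29 were negative without HC trained pool 2. The list median was -0.09 over all pools, -0.08 in batch 1 and -0.10 in batch 2. It was -0.04 without HC trained pool 1 and -0.11 without HC trained pool 2. Trained and control pools did not overlap for 6 of the 36, all lower in HC trained pools: Egr1, Egr4, Jun, Jund, Ier2 and Homer1. Among all genes above background 6.97% were lower without overlap.

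Egr1, a zinc finger factor widely used as a marker of active neurons, measured 6.74, 6.79 and 6.73 in HC trained pools, against 6.82, 7.07 and 7.00 in HC control pools. Every HC trained pool was below every HC control pool, and the difference was -0.21 (SE 0.10, adjusted p = 0.744). Fosb, a partner of Jun in the AP-1 factor, had the largest difference of the list: it measured 4.42, 4.32 and 4.57 in HC trained pools, against 4.53, 4.91 and 4.86 in HC control pools. HC trained pool 3 overlapped HC control pool 1, and the difference was -0.33 (SE 0.22, adjusted p = 0.840). Fos itself measured 4.30, 4.82 and 4.62 in HC trained pools, against 4.44, 5.08 and 4.87 in HC control pools. The groups of Fos overlapped, and the difference was -0.22 (SE 0.17, adjusted p = 0.876). Leaving out 1 pool moved it between -0.40 (without HC control pool 1) and -0.07 (without HC control pool 2). Dusp1, a phosphatase that turns off the kinases upstream of these genes, measured 6.69, 6.89 and 6.86 in HC trained pools, against 6.79, 7.39 and 7.02 in HC control pools. Its difference of -0.26 (SE 0.15, adjusted p = 0.815) went with overlap, HC control pool 2 being far the highest, and was -0.10 without that pool and -0.39 without HC control pool 1. Npas4, a neuron-specific factor that acts on inhibitory synapses, differed in the other direction by 0.18 (SE 0.15), but by 0.000137 without HC control pool 1. Arc, which removes glutamate receptors from synapses, measured 7.39, 7.75 and 7.59 in HC trained pools, against 7.60, 7.47 and 7.60 in HC control pools, with a difference of 0.02.

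Fos and Dusp1 are given here with the 250 bases before their start sites, since calcium and cyclic AMP switch such genes through the factor CREB. Sequences are from RefSeq, build GRCm38.p6, on the strand of the gene, and capitals mark TGACG on either strand, the core that CREB reads. Fos lies on chromosome 12 (+ strand, bases 85473640 to 85473889) and Dusp1 on chromosome 17 (- strand, bases 26508473 to 26508722).
Fos: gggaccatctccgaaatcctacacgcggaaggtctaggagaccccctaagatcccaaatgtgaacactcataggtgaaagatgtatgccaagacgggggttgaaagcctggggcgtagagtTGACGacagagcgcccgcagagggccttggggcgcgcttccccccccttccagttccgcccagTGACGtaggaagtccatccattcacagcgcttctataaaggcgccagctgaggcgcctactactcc
Dusp1: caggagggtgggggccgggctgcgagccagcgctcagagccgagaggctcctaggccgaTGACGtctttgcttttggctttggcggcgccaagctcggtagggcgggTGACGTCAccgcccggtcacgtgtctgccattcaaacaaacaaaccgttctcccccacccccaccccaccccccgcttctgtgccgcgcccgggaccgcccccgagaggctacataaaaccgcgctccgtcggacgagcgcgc
TGACG was found 2 times before Fos and 3 times before Dusp1. Of those before Dusp1, 2 are the overlapping arms of 1 palindrome, TGACGTCA. RefSeq promoters were matched for 28 of the 36 immediate early genes, and 19 of these held TGACG on either strand (67.9%), against 17.8% of 32851 promoters of the same length. TGACGTCA was held by 4 of the 28 (14.3%), against 1.55% of all. A list gene was counted if any of its promoters held the motif, while the shares of all count single promoters, so the units differ. These matches describe the sequence, and are not evidence of binding in these mice.

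**Figure D3:**
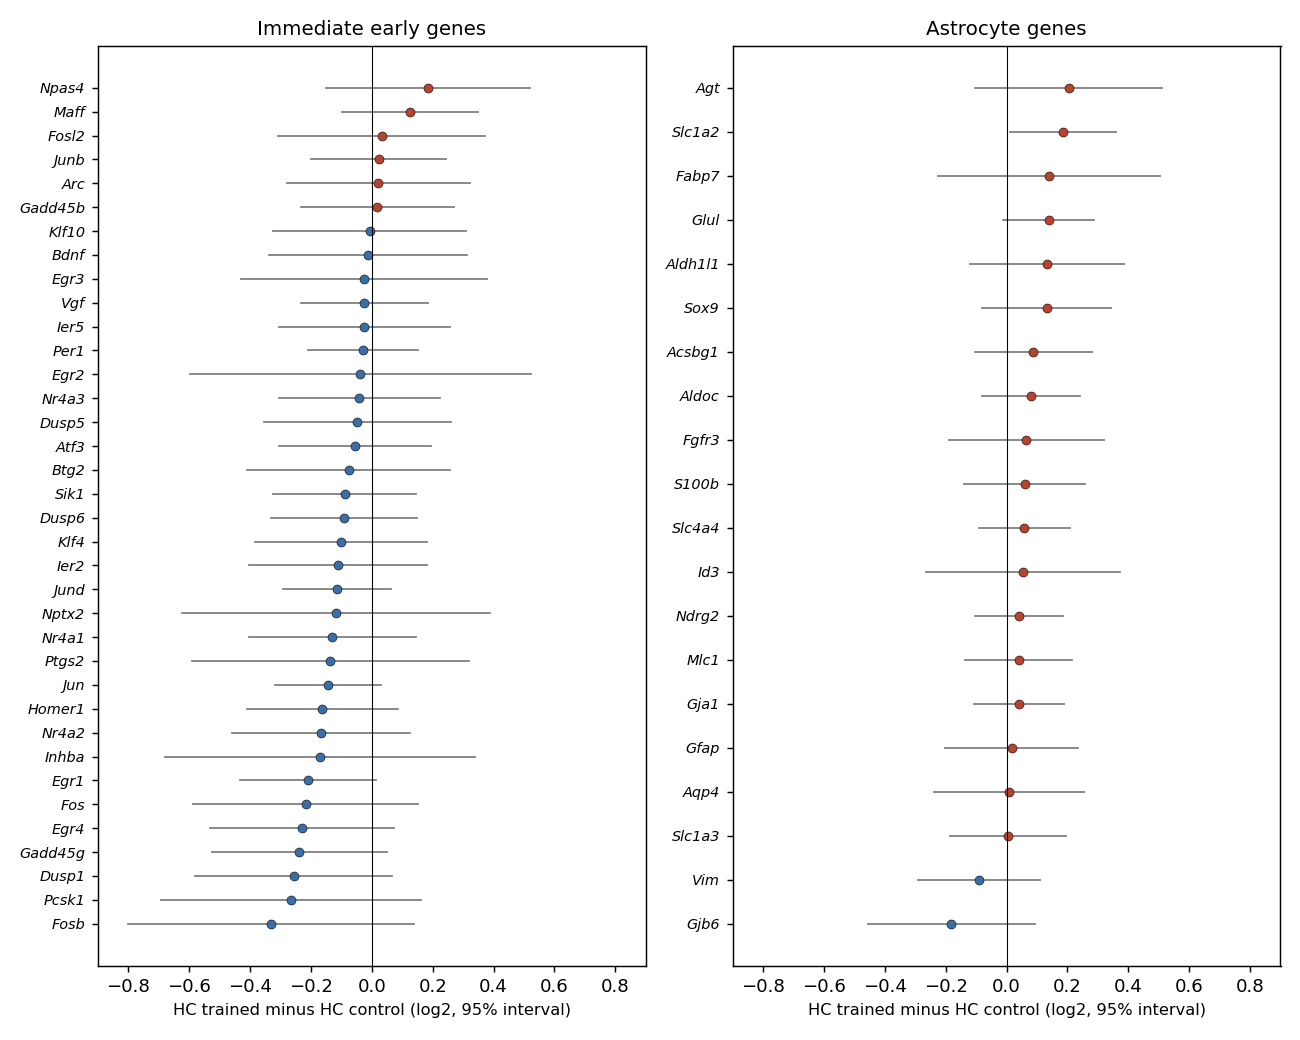
Points are differences between HC trained and HC control pools (log2) for the 36 immediate early genes (left) and the 20 astrocyte genes (right), and lines their 95% intervals. Most immediate early genes lay left of 0 and most astrocyte genes right of 0, and Slc1a2 was the member of either list whose interval cleared 0.

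Genes of lasting plasticity were spread on both sides of 0. Among 28 genes of CREB and plasticity kinases 14 were higher and 14 lower, and 0 passed the nominal threshold. Camk2a, the kinase needed for long-term potentiation, measured 10.73, 10.86 and 10.88 in HC trained pools, against 10.70, 10.66 and 10.34 in HC control pools. Its groups did not overlap, but the difference of 0.26 (SE 0.12, adjusted p = 0.729) was 0.11 in batch 1 and 0.54 in batch 2. None of the 12 neurotrophin genes passed the nominal threshold. Bdnf, the growth factor that strengthens active synapses, differed by -0.01 (SE 0.15).

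Among glutamate receptors 0 of 22 AMPA and NMDA receptor genes and 0 of 14 kainate and metabotropic ones reached the nominal threshold. Gria1, the AMPA subunit inserted during potentiation, lay between 9.92 and 10.06 in HC trained pools, against 9.87 to 10.04 in HC control pools, a difference of 0.04 with a 95% interval from -0.15 to 0.22. Of 16 GABA receptor genes, Gabra3 was lower and Gabrq and Gabra6 were higher at the nominal threshold. Gabra3, a receptor subunit, measured 7.72, 7.59 and 7.76 in HC trained pools, against 7.86, 7.97 and 7.89 in HC control pools. The groups did not overlap, with a difference of -0.22 (SE 0.09, adjusted p = 0.670) that shrank to -0.17 and lost the nominal threshold without HC trained pool 2. Gabrq and Gabra6 were dim.

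Of 31 receptors for modulatory transmitters 3 were lower and 1 higher at the nominal threshold (3.03% and 3.79% of all genes were). Chrm2, a muscarinic receptor that restrains acetylcholine release, measured 5.30, 5.53 and 5.64 in HC trained pools, against 5.71, 6.06 and 5.72 in HC control pools. The groups did not overlap, and the difference of -0.34 (SE 0.12, adjusted p = 0.594) was -0.47 in batch 1 and -0.08 in batch 2. The other muscarinic gene, Chrm5, differed by -0.47 over all pools but by -0.74 in batch 1 and 0.06 in batch 2. Its groups overlapped. Htr1b, an inhibitory serotonin receptor of axon terminals, measured 5.48, 5.52 and 5.57 in HC trained pools, against 5.79, 5.71 and 5.72 in HC control pools, without overlap, and missed the nominal threshold without HC trained pool 2 at the same -0.21. Adra2c, an adrenergic autoreceptor, was the higher one, by 0.26 (SE 0.11, adjusted p = 0.668), with overlap.

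In the release machinery 17 genes were higher and 16 lower, and Cplx3, a complexin that clamps vesicle fusion, was the single one at the nominal threshold, by -0.26 (SE 0.11, adjusted p = 0.670), which it missed without HC trained pool 2, at -0.22. Among 28 postsynaptic scaffolds and adhesion genes 0 reached it. Nlgn3, a neuroligin that holds synapses together, had the smallest p of these. It measured 8.42, 8.49 and 8.31 in HC trained pools, against 8.55, 8.60 and 8.56 in HC control pools, a difference of -0.16 without overlap.

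Clustered protocadherins, cell surface proteins whose random choice gives each neuron its own identity, were lower in 39 and higher in 16 of the 55 measured genes. At the nominal threshold 7 were lower, above the share of all genes (3.03%), and 0 higher. Their median difference was -0.06, but it was -0.14 in batch 1 and 0.01 in batch 2. Without HC trained pool 2 it was -0.03 and the members were nearly evenly split, 29 lower and 26 higher, with 4 lower and 1 higher at the nominal threshold. Pcdhgc5, Pcdhb12 and Pcdhb15 were those that missed it without that pool.

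Pcdha9 measured 3.47, 2.89 and 3.36 in HC trained pools, against 4.30, 4.41 and 4.25 in HC control pools. The gap between the groups was wider than the spread within either, and the signal in HC trained pools was 0.473 times that in HC control pools (difference -1.08, SE 0.20, adjusted p = 0.234). Pcdha8 measured 2.45, 2.13 and 2.71 in HC trained pools, against 3.22, 3.34 and 3.30 in HC control pools, a difference of -0.86 (SE 0.17, adjusted p = 0.234). Its trained mean of 2.43 lay under the background level. Without HC trained pool 2, the lowest for both, the differences were -0.90 for Pcdha9 and -0.71 for Pcdha8. The C-type members Pcdhac2 and Pcdhgc5 were lower by smaller amounts without overlap: Pcdhac2 measured 6.67, 6.48 and 6.81 in HC trained pools, against 6.92, 7.08 and 7.00 in HC control pools, and Pcdhgc5 measured 6.82, 6.64 and 6.64 in HC trained pools, against 6.88, 6.94 and 7.12 in HC control pools. The other 3 at the nominal threshold were Pcdhb12, Pcdhb15 and Pcdhb19, with differences of -0.22, -0.26 and -0.30. Protocadherin genes of a cluster share long stretches of sequence, so probe values of single members are uncertain.

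Few markers of the principal neurons passed. Of 18 dentate granule genes 0 passed the nominal threshold, and their differences lay between -0.14 and 0.05. Of 15 CA1 genes Spink8, a secreted protease inhibitor, was lower, with a difference of -0.32 (SE 0.13, adjusted p = 0.657), and of 21 CA2 and CA3 genes the dim vasopressin receptor gene Avpr1b was lower. Of 17 cortical layer genes Cplx3, named above, was the single one. Of 14 genes of thalamic neurons, which should be scarce in a hippocampal dissection, 11 were lower. Gbx2, a homeobox gene of the developing thalamus, was higher: it measured 3.23, 3.26 and 3.10 in HC trained pools, against 2.71, 2.72 and 2.73 in HC control pools. Each trained pool lay above every control pool, with a difference of 0.48 (SE 0.11, adjusted p = 0.306). The control pools lay close together, but at the background level of 2.71.

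Genes of GABAergic interneurons were lower on balance, in 27 of 31 cases, and 13 were lower in both batches (27.7% of genes above background were). The sizes were small, with a median of -0.04, and 2 members passed the nominal threshold, both lower. Without HC trained pool 2 the median was -0.03, with 23 of 31 lower, and 2 passed. Dlx6, a homeobox gene of the interneuron lineage, measured 4.02, 3.96 and 3.96 in HC trained pools, against 4.24, 4.37 and 4.30 in HC control pools. The groups were separate and tight, and the difference was -0.32 (SE 0.08, adjusted p = 0.386). Pvalb, the calcium buffer of fast-spiking basket cells, measured 4.61, 4.66 and 4.71 in HC trained pools, against 5.10, 4.80 and 4.95 in HC control pools. Its groups did not overlap, and the difference was -0.29 (SE 0.11, adjusted p = 0.653). Crhbp, which binds the stress peptide CRH, also had groups without overlap, at -0.23. By contrast Gad2, an enzyme that makes GABA, differed by -0.12 (SE 0.09) and Sst, the peptide of dendrite-targeting interneurons, by 0.02 (SE 0.09), both with overlap.

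Adult neurogenesis and proliferation genes held 1 higher and 2 lower members of 30 at the nominal threshold. Sema3c, a secreted guidance cue, measured 5.53, 5.46 and 5.51 in HC trained pools, against 5.86, 5.72 and 5.83 in HC control pools. The groups were separate and tight, with a difference of -0.30 (SE 0.07, adjusted p = 0.323). Sox4, a factor of immature neurons, was lower by -0.25 (SE 0.12, adjusted p = 0.723) without overlap, and missed the nominal threshold without HC trained pool 2, at -0.21. Eomes, which marks intermediate progenitors, was higher but dim. Dcx, the usual marker of newborn granule neurons, measured 4.28, 4.32 and 4.59 in HC trained pools, against 4.37, 4.47 and 4.41 in HC control pools and overlapped throughout.

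Astrocyte genes were higher in HC trained pools in 18 of 20 cases, or 15 of 20 without HC trained pool 2, and 12 were higher in both batches (21.3% of genes above background were). The list mean was 7.82, 7.74 and 7.73 in HC trained pools, against 7.74, 7.69 and 7.68 in HC control pools. These means overlapped, HC trained pool 3 lying below HC control pool 1. The median difference was 0.06, or 0.03 without HC trained pool 1, and centring the arrays on their medians left it at 0.04. Slc1a2, the main transporter that clears glutamate from synapses, was the member at the nominal threshold. It measured 9.86, 9.79 and 9.97 in HC trained pools, against 9.76, 9.63 and 9.67 in HC control pools. HC trained pool 2 was just above HC control pool 1, and the difference was 0.19 (SE 0.08, adjusted p = 0.696). Glul, which turns that glutamate into glutamine, measured 11.05, 11.06 and 11.11 in HC trained pools, against 10.99, 10.94 and 10.88 in HC control pools. All trained pools were above all control pools, by 0.14 in the mean (SE 0.07, adjusted p = 0.753). Sox9, a factor of the astrocyte lineage, and Gja1, a gap junction protein, also had groups without overlap, at differences of 0.13 and 0.04. Gfap, the filament protein that rises in reactive astrocytes, differed by 0.02 with overlap. The 2 lower members were Vim, a filament protein, at -0.09 and Gjb6, a further gap junction protein, at -0.18.

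The other glial and vascular lists were close to the background. Of 25 oligodendrocyte, 16 precursor and 24 endothelial and pericyte genes 0 passed the nominal threshold. Of 24 microglia and complement genes Gpr34, a lysophospholipid receptor, was lower, by -0.23 (SE 0.10, adjusted p = 0.668). The values were 3.01, 3.00 and 2.93 in HC trained pools, against 3.13, 3.31 and 3.20 in HC control pools, without overlap. Meningeal and perivascular fibroblast genes held 17 lower and 7 higher members, and 0 at the nominal threshold. Of 28 genes of ependymal cells and motile cilia 2, Dnah11 and Spag16, were higher, and both were dim. Of 9 blood genes 2 were above background and 7 were higher, with a median of 0.17 that was the highest of any list. The neutrophil genes S100a8 and S100a9 were higher at the nominal threshold, but both were dim, with S100a9 at 2.02, 1.91 and 2.29 in HC trained pools, against 1.69, 1.70 and 1.67 in HC control pools. Ly6g, a neutrophil surface marker and dim as well, lay on the other side at 1.89, 1.97 and 1.89 in HC trained pools, against 2.15, 2.34 and 2.14 in HC control pools, without overlap but short of the nominal threshold (difference -0.29).

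Collagen chains, the fibres and sheets of the extracellular matrix, leaned higher in HC trained pools: 29 of 44 were higher, 4 of them at the nominal threshold and above the 3.79% of all genes, while 1 was lower at it. The median difference of 0.04 was 0.11 in batch 1 and -0.06 in batch 2. Col17a1, a transmembrane collagen, measured 3.21, 3.34 and 3.25 in HC trained pools, against 2.92, 2.85 and 3.16 in HC control pools, a difference of 0.29 (SE 0.09, adjusted p = 0.528) that was 0.39 in batch 1 and 0.09 in batch 2. Col11a1, a fibril collagen, measured 3.26, 2.95 and 3.01 in HC trained pools, against 2.78, 2.82 and 2.80 in HC control pools, without overlap (0.27, SE 0.09, adjusted p = 0.546). Col5a2, which regulates the width of fibrils, differed by 0.28 (SE 0.11, adjusted p = 0.662), also without overlap, and the fourth, Col4a4, was dim and missed the nominal threshold without HC trained pool 2. Col18a1, a basement membrane collagen, was the lower one. It measured 2.74, 2.94 and 2.71 in HC trained pools, against 3.05, 2.94 and 3.22 in HC control pools. Of the 28 enzymes of collagen synthesis 18 were lower, 10 higher and 0 at the nominal threshold.

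Of 34 genes of perineuronal nets and matrix proteases 2 were lower at the nominal threshold. Hapln3, a link protein that ties hyaluronan to proteoglycans, measured 2.57, 2.68 and 2.50 in HC trained pools, against 2.99, 2.85 and 2.99 in HC control pools. Trained pools were all below control pools, at a difference of -0.36 (SE 0.08, adjusted p = 0.296), though the trained pools lay at or under the background level. The protease gene Adamts5 was dim.

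The groups overlapped in HC for the candidate genes Card6, Dnase1l2 and Irf8. Card6, a caspase recruitment domain protein that acts on NF-kB, measured 2.99, 2.87 and 2.32 in HC trained pools, against 2.63, 2.48 and 2.71 in HC control pools. It was higher in both trained pools of batch 1, by 0.38 in the mean, and lower in batch 2, by -0.40. Over all pools the difference was 0.12 (SE 0.15, adjusted p = 0.939), and the mean level was just below background. Dnase1l2, a deoxyribonuclease, measured 3.50, 4.03 and 3.26 in HC trained pools, against 3.27, 3.31 and 3.16 in HC control pools. HC trained pool 2 was far the highest, and the difference of 0.35 (SE 0.17, adjusted p = 0.744) was 0.13 without it. Irf8, a factor of microglia and interferon signalling, differed by 0.21 in all pools, and by 0.31 in batch 1 and 0.00 in batch 2. Ikbkb and Nfkb2, a kinase and a subunit of the NF-kB pathway, differed by 0.04 and 0.00, and Ywhaz, used as a control gene, by -0.09 (SE 0.08).

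In the NF-kB list as a whole 19 genes were higher, 14 lower and 1 lower at the nominal threshold of 33. The 1 was Rel, an NF-kB subunit of immune cells, which measured 4.0, 3.83 and 4.02 in HC trained pools, against 3.96, 4.34 and 4.40 in HC control pools, with overlap. It missed the nominal threshold without HC trained pool 2, at -0.22. Relb, a subunit of the alternative pathway, was on the other side: it measured 4.19, 4.21 and 4.48 in HC trained pools, against 4.12, 3.94 and 4.01 in HC control pools. Its groups did not overlap, but the difference of 0.27 (SE 0.14, adjusted p = 0.759) missed the nominal threshold.

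Of 32 interferon response genes 2 were lower at the nominal threshold, the dim Trim30a and Eif2ak2, the kinase that senses double-stranded RNA, at -0.26 (SE 0.11, adjusted p = 0.696), which missed it without HC trained pool 2, at -0.19. Of 28 genes of MHC class I and the immunoproteasome 2 were higher and 1 lower. Psmb9, a catalytic subunit of the immunoproteasome, measured 3.05, 3.20 and 2.89 in HC trained pools, against 2.47, 2.50 and 2.70 in HC control pools. The groups did not overlap, and the difference of 0.49 (SE 0.10, adjusted p = 0.258) was 0.64 in batch 1 and 0.20 in batch 2. The control mean of Psmb9, 2.56, lay under the background level. H2-T22, a non-classical MHC gene, measured 2.40, 2.84 and 2.23 in HC trained pools, against 2.96, 3.69 and 3.41 in HC control pools, a difference of -0.87 (SE 0.26, adjusted p = 0.503) without overlap. Its trained mean of 2.49 lay under the background level. H2-Q7, dim, was the other higher one, and missed the nominal threshold without HC trained pool 2. MHC genes have near copies, so values of single members are uncertain.

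Replication-dependent histone genes, which supply histones to dividing cells, gave the lowest adjusted p of the whole table. Of 46 measured genes, 19 of them above background, 29 were lower and 17 higher in HC trained pools. At the nominal threshold 6 were lower, above the share of all genes (3.03%), and 1 higher. The groups did not overlap for 7 of the lower genes (6.26% of all genes) and for 1 of the higher ones. The list median was only -0.02.

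H2ac6 measured 1.33, 1.23 and 1.47 in HC trained pools, against 2.73, 2.21 and 2.35 in HC control pools. Its groups were far apart for its spread (difference -1.08, SE 0.17, adjusted p = 0.155), but nearly all its values lay in the background range. H2bc15 measured 3.30, 2.99 and 2.88 in HC trained pools, against 4.0, 4.35 and 4.24 in HC control pools. It was the only one of the 6 above background, and its signal in HC trained pools was 0.454 times that in HC control pools (difference -1.14, SE 0.21, adjusted p = 0.234). Without HC trained pool 2 the differences were -1.03 for H2ac6 and -1.11 for H2bc15. The other 4 were the dim H4c9, H4c11, H2ac4 and H2bc12, at -0.80, -0.59, -0.40 and -0.29, of which H4c9 missed the nominal threshold without HC trained pool 2. H2ac10, the brightest of those at the nominal threshold, went the other way. It measured 5.82, 5.66 and 5.73 in HC trained pools, against 5.44, 5.61 and 5.49 in HC control pools (difference 0.22, SE 0.09, adjusted p = 0.669), without overlap. Histone genes are near copies of each other, so single values are uncertain.

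**Figure D4:**
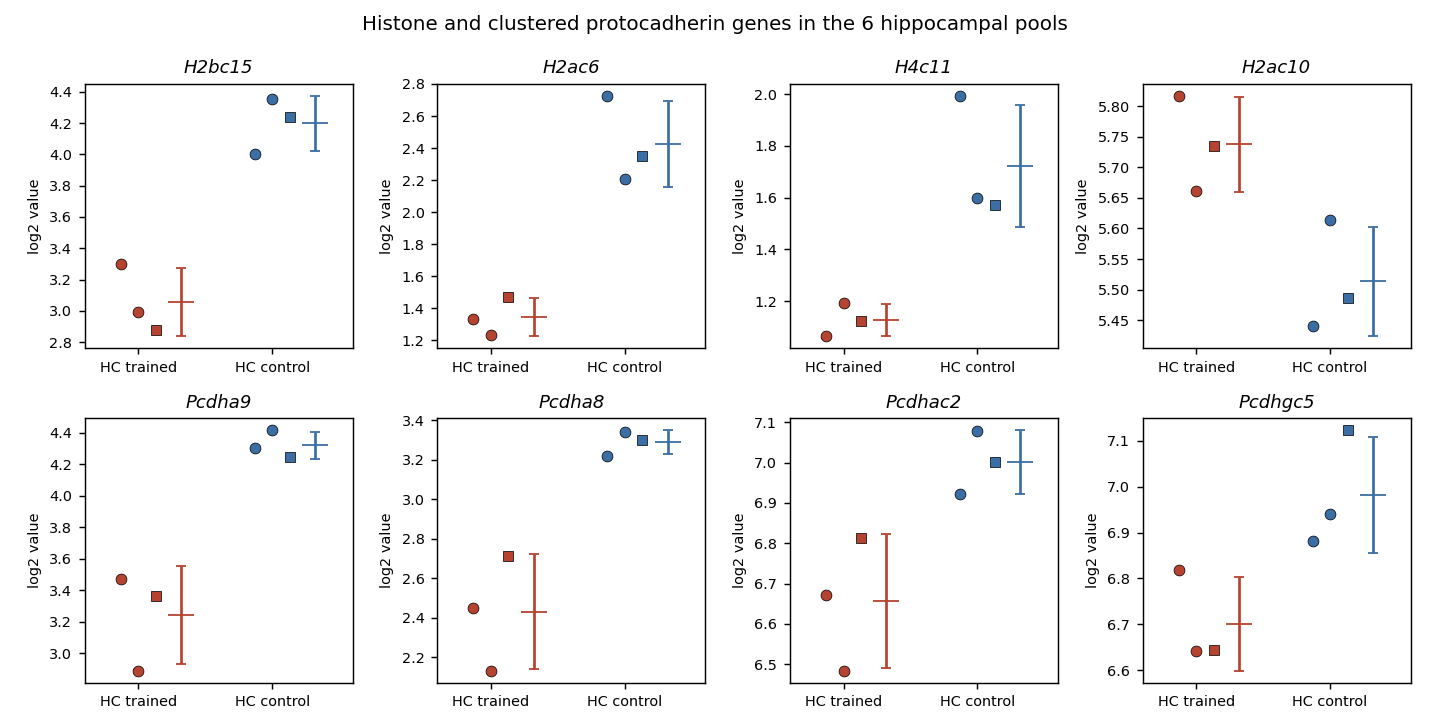
Log2 values of 4 histone genes (top) and 4 clustered protocadherin genes (bottom) in the HC trained (left) and HC control (right) pools. Circles are pools 1 and 2 (batch 1), squares pool 3 (batch 2), and the bars beside them show mean and SD of 3 pools. In H2bc15 the trained pools sat between 2.88 and 3.30 and the control pools at 4.0 or more.

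The 250 bases before the start sites of the brightest lower gene, the gene of lowest adjusted p and the higher gene are given here, because histone promoters are known for CCAAT boxes, read by NF-Y, and some for the octamer ATTTGCAT, read by POU factors. All 3 lie in the histone clusters of chromosome 13 in RefSeq build GRCm38.p6, H2bc15 on the + strand at bases 21753826 to 21754075, H2ac6 on the - strand at 23683960 to 23684209 and H2ac10 on the + strand at 23533625 to 23533874. Capitals mark CCAAT and ATTTGCAT on either strand, where ATTGG and ATGCAAAT are their reverse complements.
H2bc15: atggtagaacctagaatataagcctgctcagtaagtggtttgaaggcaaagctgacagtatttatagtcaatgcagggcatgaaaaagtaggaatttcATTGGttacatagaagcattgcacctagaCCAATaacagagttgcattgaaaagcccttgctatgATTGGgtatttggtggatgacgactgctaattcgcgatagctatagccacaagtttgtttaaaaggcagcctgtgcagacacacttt
H2ac6: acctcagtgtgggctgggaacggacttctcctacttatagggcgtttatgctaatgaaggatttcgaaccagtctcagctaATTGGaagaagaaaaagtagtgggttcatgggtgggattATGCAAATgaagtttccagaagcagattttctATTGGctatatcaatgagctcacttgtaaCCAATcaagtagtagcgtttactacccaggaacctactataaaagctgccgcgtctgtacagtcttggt
H2ac10: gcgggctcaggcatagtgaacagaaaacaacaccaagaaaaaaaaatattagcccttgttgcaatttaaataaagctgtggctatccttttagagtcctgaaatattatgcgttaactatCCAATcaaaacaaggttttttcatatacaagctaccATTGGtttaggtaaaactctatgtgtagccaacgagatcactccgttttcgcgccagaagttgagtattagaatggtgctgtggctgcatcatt
CCAAT was found 3 times before H2bc15, 3 times before H2ac6 and 2 times before H2ac10, and the octamer 1 time before H2ac6. None of these matches overlap. Promoters were matched for 42 of the 46 measured histone genes, of which 36 held CCAAT (85.7%), against 33.8% of all 32851 promoters, and 12 held the octamer (28.6%), against 1.6%. Here too a list gene counted if any of its promoters held the motif, while the shares of all count single promoters. H4c9 and H4c11, both among the lower genes, held neither. These matches are a description of sequence alone.

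Heat shock and unfolded protein response genes, which encode chaperones and stress-response factors, had the lowest list median, -0.11. Of 25 genes 21 were lower, or 22 without HC trained pool 2, and 17 were lower in both batches (27.7% of genes above background were). List means overlapped between the groups, HC trained pool 2 (6.66) lying above HC control pool 1 (6.60). HC control pool 2 had the highest mean of the list, and without it the median was -0.02. Without HC trained pool 2 it was -0.15. At the nominal threshold 2 were lower. Ddit3, a factor that mediates cell death under unfolded protein stress, measured 5.20, 5.02 and 5.00 in HC trained pools, against 5.35, 5.55 and 5.29 in HC control pools. Trained and control pools were apart (difference -0.33, SE 0.10, adjusted p = 0.535). Dnaja1, a partner of Hsp70, measured 4.99, 5.03 and 5.16 in HC trained pools, against 5.22, 5.66 and 5.28 in HC control pools, also without overlap (difference -0.32, SE 0.11, adjusted p = 0.560). The abundant Hspa8, a constitutive chaperone, was one of the 4 higher, by 0.11.

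Glucocorticoid-responsive genes, most of which corticosterone switches on, were lower in 18 of 22 cases at a median of -0.05, with 0 at the nominal threshold. Fkbp5, a brake on the glucocorticoid receptor, measured 6.77, 6.75 and 6.61 in HC trained pools, against 6.86, 6.84 and 6.85 in HC control pools, without overlap (difference -0.14, SE 0.11). Cdkn1a, an inhibitor of the cell cycle, was lower by the most, at -0.32, also without overlap. Dusp1 belongs to this list and to the immediate early genes. Circadian clock genes, 19 in all, held 0 members at the nominal threshold.

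Ribosomal protein genes differed in both directions: 33 of 59 were higher and 26 lower, with 3 higher and 4 lower at the nominal threshold. Rpl6, dim on average, had the largest difference. It measured 1.85, 1.06 and 1.95 in HC trained pools, against 3.61, 2.47 and 3.61 in HC control pools, a difference of -1.61 (SE 0.35, adjusted p = 0.296) in which all trained pools and HC control pool 2 lay in the background range. Rpl23a measured 3.79, 4.26 and 3.80 in HC trained pools, against 3.57, 2.94 and 2.80 in HC control pools (difference 0.85, SE 0.22, adjusted p = 0.413). Rpl15 was on the other side, at 5.27, 5.21 and 5.65 in HC trained pools, against 5.83, 5.77 and 5.86 in HC control pools (difference -0.44, SE 0.14, adjusted p = 0.521). None of the 3 overlapped. These genes have many processed copies in the genome, and 41 of the 59 were above background although every cell uses them, so single values are uncertain. Of 67 genes of the respiratory chain 3 were higher and 2 lower at the nominal threshold, near the shares of all genes. Ndufb7, a subunit of complex I, measured 6.44, 6.32 and 6.39 in HC trained pools, against 6.11, 5.93 and 6.22 in HC control pools, without overlap (difference 0.30, SE 0.10, adjusted p = 0.564).

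The largest differences were then taken over all genes above background with groups that did not overlap and an unadjusted p under 0.01, of which 79 nameable genes were higher and 70 lower. Background was judged by the mean of both groups, so a gene could pass through its higher group alone. The 15 higher ones by size lay between 0.49 and 0.85. Beside Rpl23a and Psmb9 they were Lce3d, Mettl7a2, Lincred1, Tff3, Spaca4, Apol9a, Traj8, Sertad3, Klk1b11, Traj43, Hmx3, Foxf1 and an immunoglobulin kappa variable segment. Most of them are known from other tissues, such as Lce3d of the skin envelope, the gut peptide Tff3 and the T cell receptor segments Traj8 and Traj43. Control means lay under the background level of 2.71 for Psmb9 (2.56), Lincred1 (2.58), Tff3 (2.66) and Traj43 (2.67).

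Lce3d measured 3.68, 3.51 and 3.91 in HC trained pools, against 2.99, 2.57 and 3.01 in HC control pools, 1.8 times the control signal (difference 0.85, SE 0.16, adjusted p = 0.234). Tff3 measured 3.00, 3.34 and 3.49 in HC trained pools, against 2.80, 2.64 and 2.54 in HC control pools (0.61, SE 0.12, adjusted p = 0.242). The differences were 0.82 in batch 1 and 0.90 in batch 2 for Lce3d, and 0.45 and 0.95 for Tff3. Groups without overlap were a condition of this choice, so the same direction in both batches was fixed in advance. Sertad3, a transcriptional co-regulator, measured 3.80, 3.29 and 3.76 in HC trained pools, against 3.24, 2.94 and 2.99 in HC control pools. Its groups did not overlap, and the difference was 0.56 (SE 0.13, adjusted p = 0.323). Apol9a, an apolipoprotein L gene, measured 4.77, 4.71 and 4.62 in HC trained pools, against 4.33, 3.98 and 4.04 in HC control pools (0.59, SE 0.13, adjusted p = 0.323). Mettl7a2, a methyltransferase, was highest in HC trained pool 2, at 4.48, 5.12 and 3.99 in HC trained pools, against 3.93, 3.44 and 3.71 in HC control pools. Its difference of 0.84 was 0.54 without that pool and then missed the nominal threshold.

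The 15 lower genes by size lay between -0.46 and -1.14. Beside H2bc15, Pcdha9, Pcdha8 and H2-T22 they were Fthl17b, Ttpa, Zfp354b, Prps1l3, Zfp811, Zfp617, Fbl, Nsun6, Pigx, Pgm3 and Fmo2. Trained means lay under the background level for Pcdha8 (2.43), H2-T22 (2.49) and Ttpa (2.69). Ttpa, the protein that carries vitamin E, measured 2.97, 2.61 and 2.50 in HC trained pools, against 3.36, 3.46 and 3.30 in HC control pools, and no trained pool reached a control pool (difference -0.68, SE 0.13, adjusted p = 0.234). Zfp354b, a zinc finger gene, measured 3.07, 3.18 and 2.83 in HC trained pools, against 3.55, 3.82 and 3.47 in HC control pools. Fbl and Nsun6 encode methyltransferases of RNA. Fbl, the fibrillarin of the nucleolus, measured 4.54, 4.01 and 4.23 in HC trained pools, against 4.59, 4.90 and 4.70 in HC control pools, where HC trained pool 1 came close to HC control pool 1. Pgm3 makes the sugar nucleotide for glycoproteins, and measured 4.39, 4.38 and 4.23 in HC trained pools, against 4.58, 4.98 and 4.84 in HC control pools (difference -0.46, SE 0.11, adjusted p = 0.323).

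**Figure D5:**
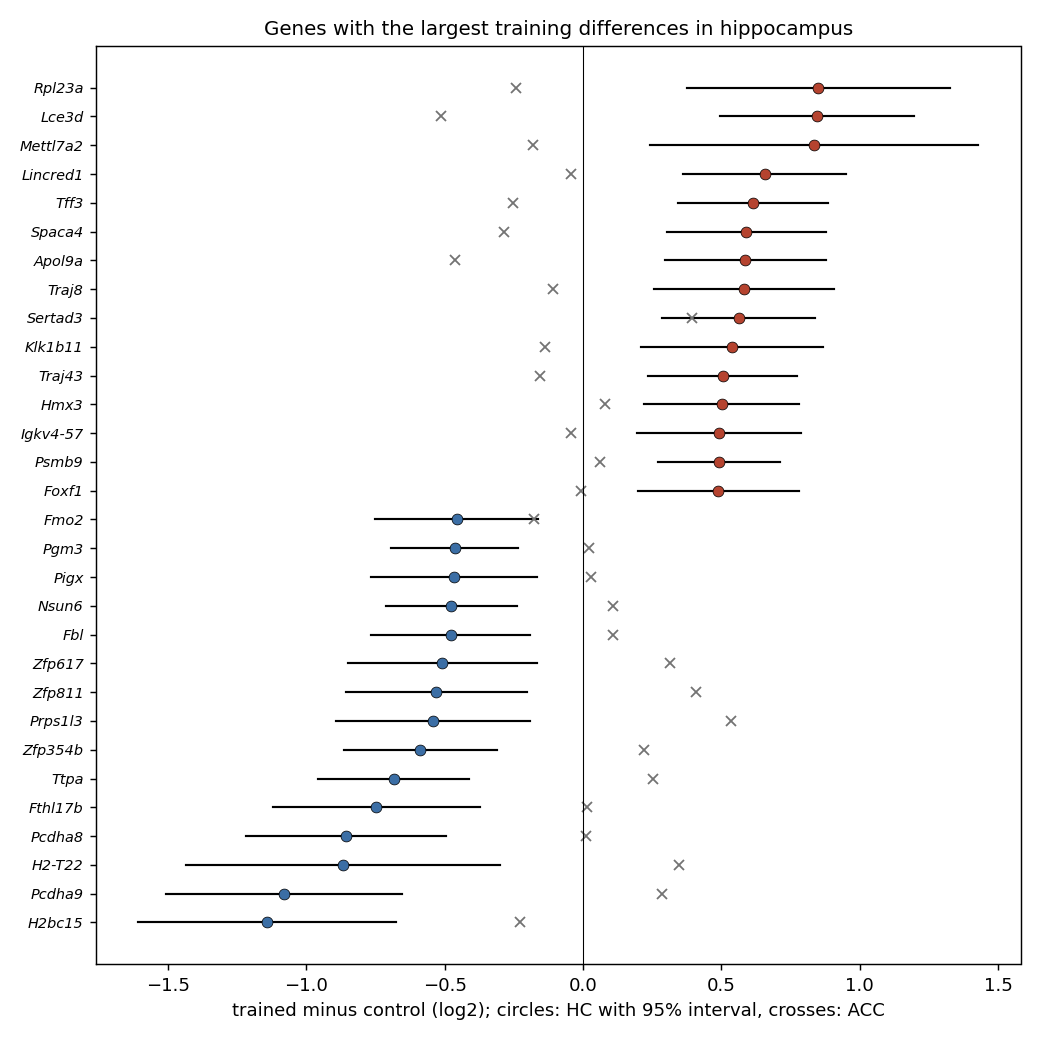
Circles are HC trained minus HC control differences (log2) with 95% intervals for the 15 largest differences in each direction among nameable genes above background. Crosses are the same genes' trained minus control differences in ACC. Rpl23a, at 0.85, is at the top and H2bc15, at -1.14, at the bottom, and most crosses lie near 0 or on the opposite side of it.

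Whether a training difference in HC differed from that in ACC was tested gene by gene as the HC difference minus the ACC difference. No gene passed at an adjusted p under 0.05 (0%), with a smallest adjusted p of 0.107. At an unadjusted p under 0.05, 1377 genes had a higher (5.03%) and 1050 a lower difference in HC (3.83%). The 6 nameable genes above background with the smallest p were Lce3d, Apol9a, Fgl2, Tmem37, Ttpa and Wfdc13. Lce3d differed by 0.85 in HC and by -0.51 in ACC, a contrast of 1.36 (SE 0.23, adjusted p = 0.170). Fgl2, a fibrinogen-like immune protein, differed by -0.22 in HC and by 0.40 in ACC (contrast -0.62, SE 0.12, adjusted p = 0.237), and Tmem37, a membrane protein, by 0.35 in HC and -0.15 in ACC (contrast 0.49, SE 0.09, adjusted p = 0.237).

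Among the lists, the contrast passed an unadjusted p under 0.05 in the lower direction for 8 of 46 histone genes and 7 of 55 protocadherins, above the share of all genes (3.83%), and in the higher direction for 5 of 44 collagen chains, above 5.03%. For heat shock genes 2 of 25 and for GABAergic interneuron genes 3 of 31 had a lower contrast. Dlx6 was one of these, with -0.32 in HC and 0.27 in ACC. For immediate early genes 0 of 36 passed in either direction, and their median difference was -0.09 in HC and -0.08 in ACC. For astrocyte genes it was 0.06 in HC and 0.02 in ACC, and 0 of 20 passed.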

How the data were processed

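Total RNA of pooled hippocampus or ACC was hybridised to Affymetrix Mouse Gene 2.0 ST arrays, 3 pools in each of 4 groups. Per the labels and the study's methods, the authors corrected, normalized and summarised the arrays by RMA (affy 1.62.0, R 3.6.0, probe sets of 1 Entrez gene each), and the deposited values are log2 expression for 27381 genes. Whether a batch adjustment followed is not given in the sources used here. Arrays have no depth, so the 3 pools a group limit the precision.

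Each column was matched to its pool by its label, and gene symbols came from the platform annotation (26794 genes with 1 symbol, 587 without). 4 group means were fitted to all 12 arrays with limma 3.58.1 (R 4.3.3, lmFit and eBayes, no filter, no covariate), as the study's methods describe, with Benjamini-Hochberg adjustment over all genes. The procedure was tested on simulated data. Lists got no test. 1019 genes of 39 lists were measured.

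Members, lists and tests were chosen with earlier results of these data known. Genes were named from among the study's candidates, the 15 largest differences each way (above background, groups apart, unadjusted p under 0.01, leaving out 8986 predicted, receptor and small RNA genes), the 3 smallest p of each list, the 6 smallest of the HC minus ACC contrast, the 6 highest and 6 lowest loadings, and members of a list described. Promoters were the 250 bases before RefSeq start sites. Alternatives took the batch or the replicate number as a block, fewer arrays, brighter genes, other scalings, variance models, array weights and each array left out. Counts of list members without HC trained pool 2 or with a block were chosen after seeing the data. ACC values were used only as named above, and 1 further candidate gene was not analysed here.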

Additional observations from a re-analysis of the deposited data

How the results depend on the processing

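The count of 0 genes at an adjusted p under 0.05, for training in HC and for the HC minus ACC contrast, was the same under every alternative run. Limits were set by 3 pools a group. The lowest adjusted p of any named gene under an alternative was 0.0506, for the dim H2ac6 with the replicate block. At an unadjusted p under 0.05 the total of 1867 ranged over 1607 to 1897 when 1 pool was left out, higher genes over 840 to 1080 and lower ones over 705 to 922. Genes at or above the median level alone gave 869 (376 higher, 493 lower) and 1579 without overlap, fewer genes being tested. The split was 934 higher and 885 lower after quantile normalization again. With batch as a block 869 were higher and 694 lower.

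The labels number the pools 1 to 3 in every group. Deviations of same-numbered HC trained and HC control pools correlated at -0.02, -0.12 and -0.25, and none of these values was positive. They cannot decide whether same-numbered pools held paired mice, because each deviation was taken from a mean of only 3 arrays. The numbers do carry the batch, which the pools numbered 3 shared. With the replicate block there were 869 higher and 706 lower genes, with 0 at the adjusted threshold. For lists, it changed counts by at most 1 in histones, protocadherins and heat shock genes.

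Of 135 named genes, 123 kept their direction under all alternatives, and the cause of the exceptions was not tested. On median centring Arc moved to -0.000921, Gfap to -0.00576 and Nfkb2 to -0.0196, and Nfkb2 to -0.0157 after quantile normalization again and -0.0187 with array weights, where Bdnf moved to 0.00023. In the first experiment alone Hspa8 was -0.00548 and Ikbkb -0.0279. With 1 pool left out Arc ranged over -0.0644 to 0.114, Bdnf over -0.0713 to 0.072, Card6 over -0.016 to 0.324, Dcx over -0.119 to 0.0386, F5 over -0.41 to 0.329, Gfap over -0.0318 to 0.084, Gria1 over -0.00367 to 0.0804, Nfkb2 over -0.117 to 0.109, Slc4a5 over -0.469 to 0.161 and Sst over -0.0153 to 0.0801.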
